A study of Mus musculus with 38 samples.

Results

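The genes of cholesterol and fatty acid synthesis were followed in 38 RNA-seq libraries of mouse Th17 cells, a class of CD4 T helper cell that makes IL-17. The group held 32 genes, found by symbol in all 4 count tables, out of 31053 symbols listed there. By role, 19 encode enzymes or enzyme partners of sterol synthesis, 5 encode regulators of the pathway or a sterol carrier, 6 serve fatty acid synthesis and 2 export sterol from the cell. The rule goes by gene symbol and uses no measured value, but the members were chosen with earlier results of these data known.

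In the first set of libraries, naive T cells of spleen and draining lymph node were turned in culture into inflammatory Th17 cells, named Th17Inf in the labels, on a C57/B6 background. They were kept for 2 days with dexamethasone (Dex), a synthetic glucocorticoid whose dose was not given in the sources used here, or without it. The 4 groups were IL-23R KO cells with Dex, WT cells with Dex, IL-23R KO control cells and WT control cells, with 4 libraries each. IL-23R is a subunit of the receptor for IL-23, a cytokine that sustains inflammatory Th17 cells. In the second set, Th17Inf cells were made from naive T cells with the 2D2 T cell receptor, specific for a protein of myelin, and were moved into WT mice. The mice developed experimental autoimmune encephalomyelitis (EAE), a model of brain and spinal cord inflammation, and 2D2+ cells were sorted at its peak. From the central nervous system (CNS) there were 4 libraries labelled CHD1 cKO and 3 CHD1 WT libraries, and likewise 4 and 3 from the draining lymph node (dLN). CHD1 is a chromatin remodeller. A further 4 GR cKO and 4 GR WT libraries came from the CNS, where GR is the glucocorticoid receptor and the genotype label of the cKO reads GR KO. All donors of the second set were 2D2+ and all recipients WT. Neither the Cre line behind each conditional knockout nor the age of the mice was given in the sources used here. Nothing in the labels says that libraries of 1 group came from separate mice or cultures, so every p-value here measures only the spread between these samples, which may be technical.

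Cells build cholesterol from acetyl units through mevalonate, farnesyl diphosphate, squalene and lanosterol, and the last steps trim and rearrange lanosterol. When sterol runs low in the endoplasmic reticulum, SCAP escorts the SREBP factors, encoded by Srebf1 and Srebf2, to the Golgi, where they are cut and released to switch on the genes of this pathway, while INSIG proteins hold SCAP back when sterol is plentiful. Oxidised sterols act in the opposite way through the LXR receptors, which raise the exporters ABCA1 and ABCG1. T cells that divide need both products for membranes.

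SREBP factors are known to bind sterol response elements next to NF-Y sites, so 4 promoters of sterol synthesis genes are shown as far as the 180 bases before the RefSeq start. They were picked because they differ in these letters and in response. Hmgcs1 was the only one of 16 sterol synthesis genes with an entry to hold the response element core, Mvd fell with a pair of NF-Y boxes in view, Lss rose and Erg28 fell most while holding no NF-Y box. Coordinates are of GRCm38.p6, the plus strand for Hmgcs1 (chr13:119690171-119690350) and Lss (chr10:76531425-76531604) and the minus strand for Mvd (chr8:122443423-122443602) and Erg28 (chr12:85824894-85825073). The RefSeq start of Erg28 lies upstream of its start in GENCODE M21. Each run is given 5′ to 3′ on the strand of the gene, and capitals mark the core TCACNCCAC and the NF-Y box CCAAT or its reverse complement ATTGG.
Hmgcs1: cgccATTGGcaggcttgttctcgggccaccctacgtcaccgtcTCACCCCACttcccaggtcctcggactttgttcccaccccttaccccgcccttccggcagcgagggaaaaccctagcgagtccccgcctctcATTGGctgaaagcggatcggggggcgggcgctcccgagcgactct
Mvd: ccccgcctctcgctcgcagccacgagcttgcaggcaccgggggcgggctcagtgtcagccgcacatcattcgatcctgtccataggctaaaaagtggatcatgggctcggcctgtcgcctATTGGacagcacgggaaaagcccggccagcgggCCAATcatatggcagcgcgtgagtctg
Lss: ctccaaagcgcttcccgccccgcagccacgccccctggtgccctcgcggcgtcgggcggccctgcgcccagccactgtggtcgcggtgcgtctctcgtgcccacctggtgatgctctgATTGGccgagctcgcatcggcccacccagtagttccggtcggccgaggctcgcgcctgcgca
Erg28: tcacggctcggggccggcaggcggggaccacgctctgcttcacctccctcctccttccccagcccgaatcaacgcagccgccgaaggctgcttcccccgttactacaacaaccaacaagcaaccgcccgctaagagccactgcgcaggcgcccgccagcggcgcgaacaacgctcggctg

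Over the window from 250 bases before to 50 after the start, on either strand, 25 of the 32 members had a RefSeq entry. The NF-Y box stood in 14 of 16 sterol synthesis promoters, all but Acat2 and Erg28, and in those of 41.1% of 27025 genes in the whole table. The core TCACNCCAC stood in 1 of 16, against 1.44% of all genes. The E-box CACGTG, another site of SREBP factors, was found in 3 of 16, against 8.09% of all genes. The Sp1 box GGGCGG was present in 15 of 16, all but Pmvk, against 38.2% of all genes. Each motif was counted on its own, whether or not its letters overlapped another motif. A match describes letters and not binding, and an absent match says only that the letters are not in the window. Abcg1, Stard4, Sqle, Scd1, Scd2, Fdps and Fdft1 had no entry.

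Levels below are scaled CPM, which are CPM (read counts relative to the library total, set to a common scale) after scaling of library sizes by the trimmed mean of M values (TMM), and fold changes are log2 values ± SE of the edgeR fit. Totals ran from 3320586 to 4732419 counts in culture, 6281769 to 9159671 in the GR libraries, 4911109 to 6262849 in CHD1 CNS and 3148634 to 5158450 in dLN, and no member was at 0 in any library. Repeat and ribosomal RNA took 30.5% to 37.5% of counts in KO Dex libraries 21% to 25.4% in WT Dex, 13.5% to 22.1% in KO controls and 15.9% to 18.9% in WT controls, with mitochondrially encoded genes at 0.359% to 0.447% in KO Dex and 1.46% to 2.26% elsewhere in culture. The targeted gene Il23r stood at 1.5 to 2.38 scaled CPM in KO Dex and 5.87 to 15.8 in WT Dex, and at 2.14 to 5.27 in KO and 5.77 to 8.01 in WT controls. Nr3c1, which encodes GR, stood at 5.18 to 6.1 in GR cKO and 11.5 to 17.2 in GR WT cells. Chd1 overlapped between genotypes, at 2.89 to 5.3 in cKO and 4.19 to 5.07 in WT cells of the CNS and at 3.09 to 6.56 and 5.5 to 6.06 in dLN. These are counts of the whole gene and the deleted part was not given in the sources used here, so they do not check the CHD1 labels. Each of 8 T cell markers was detected in every group. Library preparation did not mark strand, and some members share exons with another gene. Fdft1 shares 18.3% of its exon bases with Ctsb on the other strand, Fdps 26.7% with Gm43738 and Tm7sf2 12.1% with Vps51. Acat2 and Acat3, and Scd1 and Scd2, are near copies whose reads may have been split wrongly.

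Levels were also divided by the merged length of all annotated exons of each gene, which can exceed the length of any single transcript. On this scale Fdps had the highest level among members in WT control cultures at 117 scaled CPM per kb. It was followed by Pmvk at 50.6, Erg28 at 40.4, Acly at 38.5 and Mvd at 37. At the other end stood Scap at 1.38, Abcg1 at 1.21, Acaca at 0.477 and Abca1 at 0.143 per kb. In CHD1 WT cells of the CNS the order was led by Ebp at 20 per kb, with Acly at 13.8, Fdps at 13 and Pmvk at 11.4. Scd1 was lowest there at 0.144 per kb. The differences between neighbours in these orders were not tested.

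With dexamethasone, most of the sterol synthesis genes fell in IL-23R KO Th17 cells, while the exporter gene Abcg1 rose. The fatty acid genes went both ways, as Acly and Elovl6 rose and Scd1, Fasn and Acaca fell. Of 19 sterol synthesis genes, 16 fell, 1 rose and 2 were not called at an edgeR adjusted p of 0.05. Over all 10813 genes tested in culture, 27.4% fell and 27.3% rose in the same comparison. The median log2 fold change of the 19 genes was -0.77, against 0.01 over all genes tested. The geometric mean of the 19 levels was 38 ± 1.54 scaled CPM in KO Dex cells and 64.5 ± 0.995 in KO controls (SD, n = 4 each). In bulk libraries, fewer cells that express a gene and less of its RNA per cell cannot be told apart.

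**Figure D1:**
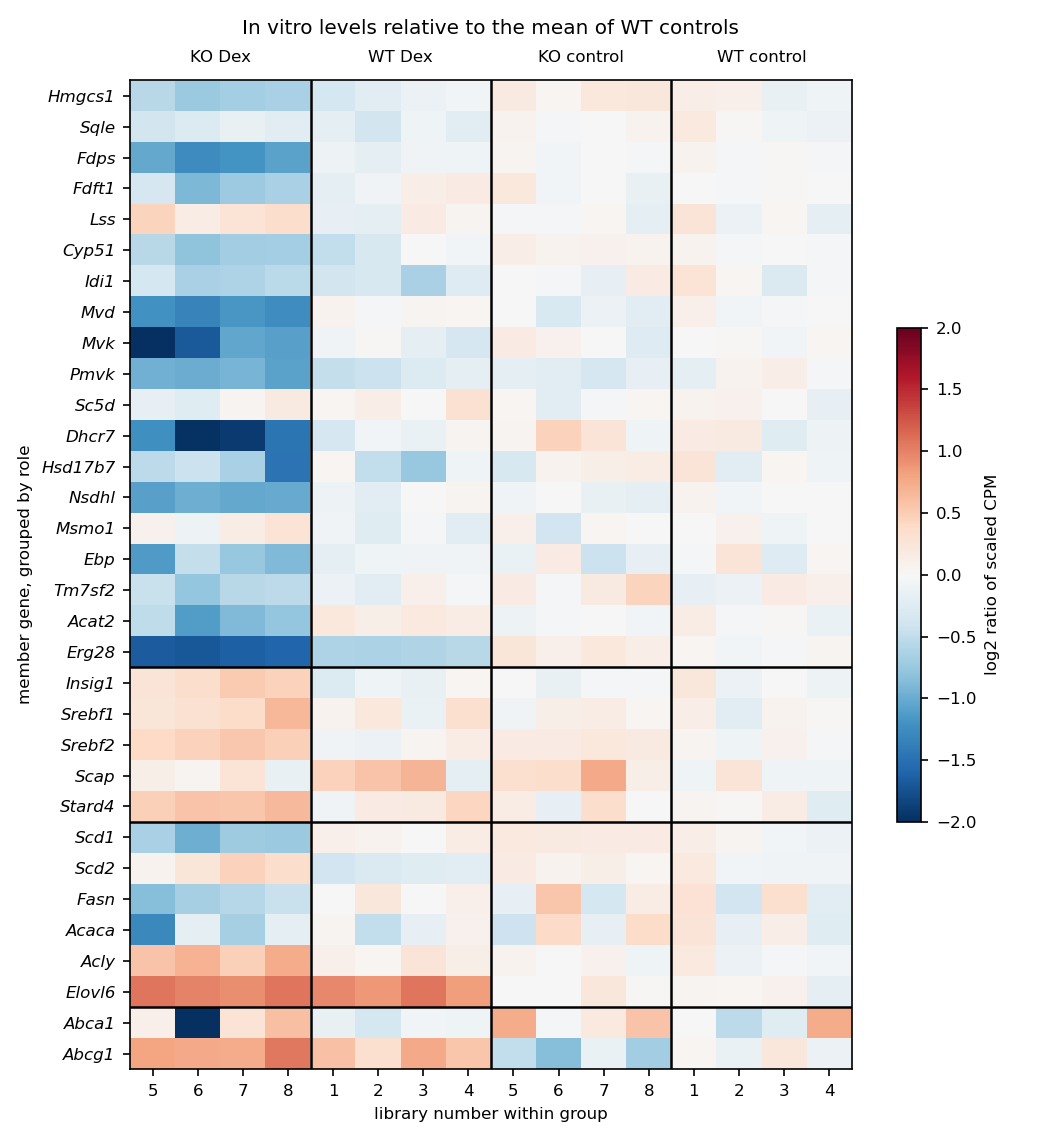
Log2 ratio of scaled CPM to the mean of the WT control libraries for the 32 members (rows, by role) in the 16 culture libraries (columns, KO Dex leftmost). Most sterol synthesis rows are low in the KO Dex columns, while Abcg1 and Elovl6 are high in both Dex groups.

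The first steps join acetyl units and make mevalonate. Hmgcs1, which makes HMG-CoA, was at 85.4, 74.3, 77.6 and 79.2 scaled CPM in KO Dex cells, against 141, 128, 144 and 146 in KO controls. Every KO Dex library lay below every control, and the log2 fold change was -0.82 ± 0.09 (edgeR adjusted p = 5.09e-07). Acat2, which joins acetyl-CoA molecules in the cytosol, was at 55.7, 36.8, 43.2 and 46.3 with Dex, against 74.2, 77.2, 78.8 and 76.5 without (-0.75 ± 0.1, edgeR adjusted p = 6.99e-06). The next enzymes turn mevalonate into isoprenoid units. Mvk, the mevalonate kinase, was at 4.19, 5.79, 9.03 and 8.74 in KO Dex cells, against 20.7, 19.7, 18.4 and 15.5 in KO controls, a log2 fold change of -1.4 ± 0.18 (edgeR adjusted p = 5.27e-06). Mvd, which removes the carboxyl group from mevalonate diphosphate, was at 29.7, 27.3, 30.5 and 28.9 with Dex, against 68.9, 55.8, 63 and 58.9 without, with no overlap (-1.08 ± 0.08, edgeR adjusted p = 1.37e-08). Pmvk, the kinase between them, fell by 0.77 ± 0.09 and Idi1, the isomerase of the isoprenoid units, by 0.53 ± 0.12 on the log2 scale.

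Fdps, which joins isoprenoid units into farnesyl diphosphate and lies at chr3:89093588-89101959 (mm10, minus strand), was at 244, 207, 215 and 236 scaled CPM in KO Dex cells, against 511, 473, 495 and 481 in KO controls. The groups stood far apart, at a log2 fold change of -1.12 ± 0.06 (edgeR adjusted p = 4e-10). The 3 enzymes from farnesyl diphosphate to lanosterol did not move together. Fdft1, the squalene synthase, fell by 0.65 ± 0.11, and Sqle, the squalene epoxidase, by 0.27 ± 0.09 on the log2 scale. Lss, which closes the ring to lanosterol, was at 80.9, 66.1, 71.7 and 75.5 in KO Dex cells, against 58.4, 58.1, 61.2 and 52 in KO controls. It was the 1 sterol synthesis gene that rose (0.36 ± 0.11, edgeR adjusted p = 0.00912). The Sqle call was lost when only genes with a mean of at least 10 CPM were tested (edgeR adjusted p = 0.054).

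Among the genes that trim lanosterol, Erg28 and Dhcr7 had the lowest fold changes. Erg28, known from yeast as a scaffold of the enzymes that remove methyl groups, was at 53.9, 52.5, 55 and 56.7 scaled CPM in KO Dex cells, against 203, 184, 197 and 188 in KO controls (-1.82 ± 0.06, edgeR adjusted p = 2.55e-12). Dhcr7, the reductase that makes cholesterol itself, was at 17.1, 10.2, 10.7 and 14.6 with Dex, against 41.9, 55, 48.1 and 38 without, and the groups did not overlap (-1.79 ± 0.17, edgeR adjusted p = 1.61e-07). Nsdhl, a dehydrogenase of the demethylation steps, was at 18.9, 20.4, 19.8 and 20.1 in KO Dex cells, against 38.2, 40.4, 36.3 and 35.3 in KO controls. Its log2 fold change was -0.92 ± 0.09 (edgeR adjusted p = 1.59e-07). Cyp51, the lanosterol demethylase, fell by 0.77 ± 0.1, Tm7sf2, a sterol reductase, by 0.77 ± 0.12, Hsd17b7, a ketosteroid reductase, by 0.75 ± 0.22 and Ebp, a sterol isomerase, by 0.68 ± 0.15 on the log2 scale. The methylsterol oxidase gene Msmo1 (0.16 ± 0.1, edgeR adjusted p = 0.19) and the desaturase gene Sc5d (0.01 ± 0.1, edgeR adjusted p = 0.939) were not called.

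Of the 5 regulators and carriers, 4 rose in KO cells with Dex and none fell, against 27.3% and 27.4% of all genes. Insig1, which retains SCAP in the endoplasmic reticulum and is itself a known SREBP target, was at 58.1, 62, 70.3 and 67 scaled CPM in KO Dex cells, against 48.9, 43.9, 48.1 and 47.2 in KO controls (0.46 ± 0.09, edgeR adjusted p = 0.000627). Srebf2, the main factor of sterol synthesis, rose by 0.29 ± 0.07, Srebf1, the main factor of fatty acid synthesis, by 0.34 ± 0.11 and Stard4, a sterol carrier, by 0.48 ± 0.12 on the log2 scale. Scap stood at -0.32 ± 0.19 (edgeR adjusted p = 0.165). The Srebf1 call was lost without KO control 5 or KO Dex 8 (edgeR adjusted p = 0.0534 and 0.0805).

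Of the 6 fatty acid genes 2 rose and 3 fell, against 27.3% and 27.4% of all genes. Elovl6, which lengthens palmitate, was at 53, 50.1, 48 and 52.7 scaled CPM in KO Dex cells, against 25.4, 25.4, 29.4 and 25.7 in KO controls (0.95 ± 0.09, edgeR adjusted p = 1.47e-07). Acly, which supplies cytosolic acetyl-CoA to both pathways, was at 300, 327, 283 and 340 with Dex, against 213, 201, 216 and 192 without (0.61 ± 0.08, edgeR adjusted p = 6.95e-06). In both genes the groups stood apart. Scd1, a desaturase, was at 18.3, 14.6, 17.5 and 17.2 in KO Dex cells, against 33, 32.6, 32.3 and 32.1 in KO controls (-0.94 ± 0.09, edgeR adjusted p = 2.26e-07). Fasn, the fatty acid synthase, fell by 0.72 ± 0.19. Acaca, the carboxylase that makes malonyl-CoA, had a log2 fold change of -0.61 ± 0.25 with overlapping groups (edgeR adjusted p = 0.0467). Its call was lost without KO control 6 or 8 or KO Dex 5 or 7, at edgeR adjusted p from 0.106 to 0.153. Scd2 stood at 0.19 ± 0.08 (edgeR adjusted p = 0.0694). The exporter Abcg1 was at 15.3, 15, 14.7 and 18.3 in KO Dex cells, against 6.28, 4.88, 8.01 and 5.48 in KO controls (1.38 ± 0.16, edgeR adjusted p = 1.88e-06). Abca1, at 0.341 to 2.35 scaled CPM over all cultures, was not tested.

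Related genes outside the 32 are set here against the 54.7% of all genes that were called in this comparison. Of 9 other genes of sterol synthesis and linked steps tested, 2 rose and 3 fell. Dhdds, which makes dolichol chains, was at -0.95 ± 0.13 and Aacs, which activates acetoacetate, at -0.79 ± 0.13. None of 5 other genes of SREBP processing was called. Of 12 genes of sterol uptake, storage and movement, 6 rose and 3 fell: the lipoprotein receptor Vldlr changed by 1.51 ± 0.18, the acyltransferase Soat1, which stores sterol as esters, by 1.05 ± 0.15, and Gramd1b, a sterol transfer protein, by -1.59 ± 0.3. Among 5 LXR genes 3 rose and 1 fell, with the target Arl4c at 1.67 ± 0.21 and the receptor Nr1h2 at 0.71 ± 0.12. The target Lpcat3 averaged 33 scaled CPM in KO Dex cells and 53.9 in KO controls, so the listed LXR targets did not move together. Of 14 other fatty acid genes 2 rose and 9 fell, led by the desaturase Fads2 at -2.21 ± 0.19, while the phosphatidate phosphatase Lpin1 was at 1.66 ± 0.14. Of 18 oxidation genes 4 rose and 6 fell, with the electron carrier subunit Etfb at -1.5 ± 0.09 and the carnitine enzyme Cpt1a at -1.21 ± 0.15.

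Other RNA moved with these libraries. The summed level of 8 dendritic cell and MHC class II genes was 907 to 1060 scaled CPM in KO Dex and 239 to 392 in KO controls, most of it H2-Ab1, and the defining marker Itgax was at 0 in KO Dex. The sum of 15 macrophage genes was 142 to 150 in KO Dex and 82.1 to 109 in KO controls, and 8 of the 15, Lyz2 and Csf1r among them, were at 0 in every KO Dex library. The sum of 8 T cell genes was 2110 to 2410 in KO Dex, against 2680 to 2860 in KO controls. Sums for other tissues were higher in KO Dex as well, and each rested on few genes. The oligodendrocyte sum was 123 to 152 in KO Dex and 69.6 to 78.4 in KO controls, most of it Cnp, with Cldn11 and Ugt8a at 0 in all of these libraries. The astrocyte and neuron sum was 302 to 307 in KO Dex and 115 to 198 in KO controls, nearly all Aldoc, with Gfap, Aqp4 and Rbfox3 at 0. The endothelial sum was 15 to 20.7 in KO Dex and 8.19 to 13.1 in KO controls, mostly Pecam1. The part of these differences in the fall of the sterol genes was not tested. With repeat and ribosomal RNA features taken out of the counts, the same 27 members were called in KO cells.

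Fewer members were called in WT cells with the same drug. Of 19 sterol synthesis genes 3 fell and none rose, against 4.20% of all genes called lower and 3.88% called higher, and the median log2 fold change was -0.12, against 0.01 over all genes. Erg28 was at 112, 110, 113 and 116 scaled CPM in WT Dex cells, against 176, 164, 167 and 177 in WT controls, and the groups stood apart (-0.6 ± 0.06, edgeR adjusted p = 8.42e-06). Pmvk was at 61.9, 64.2, 71.6 and 75.9 with Dex, against 76.5, 90.4, 94.3 and 85.1 without (-0.34 ± 0.08, edgeR adjusted p = 0.0168). Idi1 was at 51, 52.8, 41.8 and 55.1 in WT Dex cells, against 79.7, 67.6, 53.5 and 64.6 in WT controls, with overlap (-0.4 ± 0.12, edgeR adjusted p = 0.0453). Fdps was at 459, 430, 472 and 463 with Dex, against 516, 481, 499 and 479 without. Its groups just failed to overlap, but the gene was not called (-0.11 ± 0.06, edgeR adjusted p = 0.274).

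Elovl6 was at 48.9, 45.9, 53.1 and 45 scaled CPM in WT Dex cells, against 26.2, 25.8, 26.8 and 22.2 in WT controls (0.93 ± 0.09, edgeR adjusted p = 7.68e-06). Abcg1 was at 13.2, 11, 14.9 and 12.9 with Dex, against 9.06, 8.01, 10.3 and 8.13 without, again apart (0.55 ± 0.15, edgeR adjusted p = 0.0323). Scd2 was at 77.6, 82.6, 85.6 and 86.7 in WT Dex cells, against 115, 97.7, 96.1 and 96.2 in WT controls (-0.29 ± 0.08, edgeR adjusted p = 0.0471). None of the 5 regulators was called. In all, 6 members were called in WT cells, and leaving out 1 library at a time left 2 to 4. Erg28 and Elovl6 stayed called each time, whereas Idi1, Scd2, Abcg1 and Pmvk were each lost at least once. Outside the members, where 8.08% of all genes were called, 2 of 14 other fatty acid genes and 2 of 18 oxidation genes were, and none in the other 4 lists. They were Elovl5 (0.43 ± 0.11), Hsd17b12 (-0.51 ± 0.12), Etfb (-0.6 ± 0.08) and Cpt2 (-0.6 ± 0.16). The repeat share stood apart between WT Dex cells and WT controls, and so did the oligodendrocyte sum, at 93.9 to 105 scaled CPM in WT Dex and 72.5 to 77.2 in WT controls. Of the 8 genes in that sum, 6 were at 0 in every WT Dex library. The part of this sum in the WT values was not tested, and with repeat and ribosomal RNA features taken out the same 6 members were called.

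**Figure D2:**
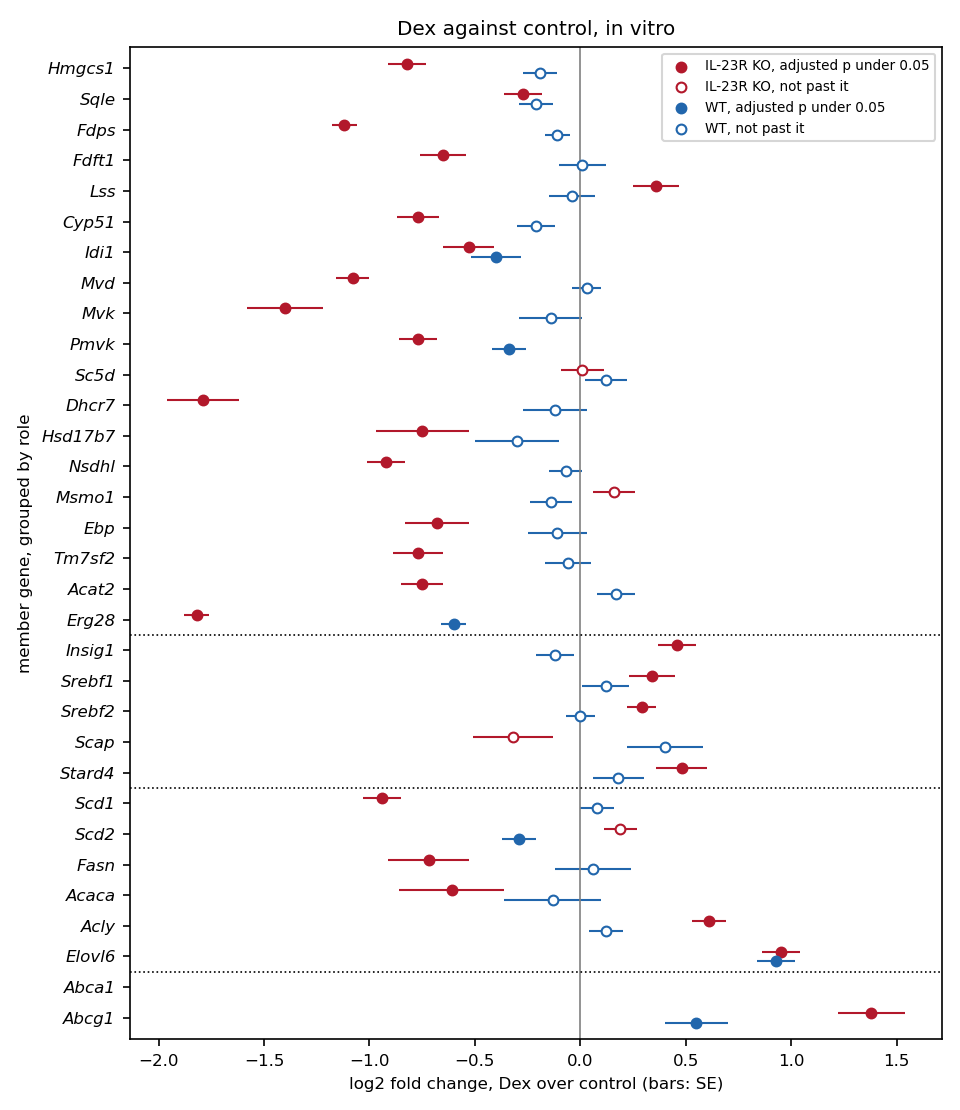
Log2 fold change, Dex over control, of each member with its SE (bars) in IL-23R KO cells (red) and WT cells (blue), where filled points have an edgeR adjusted p under 0.05. Erg28 stands at -1.82 in KO and -0.6 in WT cells, and Elovl6 at 0.95 and 0.93.

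The response to Dex differed between genotypes for 21 members, as tested by the interaction of genotype and drug. The difference, KO minus WT, was negative for 13 of 19 sterol synthesis genes and positive for none, where 17.2% of all genes were called negative and 15.0% positive. Its median over the 19 genes was -0.64, against -0.01 over all genes. The lowest values belonged to Dhcr7 (-1.66 ± 0.22, edgeR adjusted p = 3.66e-05), Mvk (-1.26 ± 0.24, edgeR adjusted p = 0.000707), Erg28 (-1.22 ± 0.08, edgeR adjusted p = 3.38e-08), Mvd (-1.11 ± 0.11, edgeR adjusted p = 2.12e-06) and Fdps (-1.01 ± 0.08, edgeR adjusted p = 3.84e-07). Sqle (-0.06 ± 0.12), Idi1 (-0.13 ± 0.17) and Hsd17b7 (-0.45 ± 0.29), which fell in KO cells, were not called here. Lss stood at 0.4 ± 0.15 (edgeR adjusted p = 0.0547).

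Elovl6 had a difference of 0.02 ± 0.12 between genotypes (edgeR adjusted p = 0.929). Scd1 (-1.02 ± 0.12, edgeR adjusted p = 1.45e-05) and Fasn (-0.77 ± 0.26, edgeR adjusted p = 0.0336) were called negative, and Acly (0.48 ± 0.11, edgeR adjusted p = 0.00364) and Scd2 (0.47 ± 0.12, edgeR adjusted p = 0.00603) positive. Abcg1 was positive at 0.83 ± 0.22 (edgeR adjusted p = 0.00898), as were Insig1 at 0.58 ± 0.13 and Srebf2 at 0.29 ± 0.1, while Scap was negative at -0.72 ± 0.26. The calls of Ebp, Fasn, Scap and Srebf2 were each lost when some single library was left out.

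Without Dex, no member passed the test between IL-23R KO and WT cells. None of 31 members tested was called by edgeR, where 0.684% of all genes were, and 6 had an unadjusted p under 0.05, as did 9.72% of all genes. DESeq2 called 0 members. Groups failed to overlap for 4 members, each higher in KO, against 2.63% of all genes. Erg28, 1 of the 4, was at 203, 184, 197 and 188 scaled CPM in KO controls, against 176, 164, 167 and 177 in WT controls (0.18 ± 0.06, edgeR adjusted p = 0.241). The others were Cyp51 (0.09 ± 0.09), Srebf2 (0.18 ± 0.07) and Scd1 (0.17 ± 0.08). Abcg1 had the smallest p, at 6.28, 4.88, 8.01 and 5.48 in KO controls, against 9.06, 8.01, 10.3 and 8.13 in WT controls (-0.54 ± 0.16, edgeR adjusted p = 0.203).

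With Dex, KO cells held less sterol synthesis RNA than WT cells. Of the 19 genes 13 were lower and 1, Lss, higher, against 23.7% and 22.2% of all genes. Mvd was at 29.7, 27.3, 30.5 and 28.9 scaled CPM in KO Dex cells, against 72.2, 66.6, 71.3 and 70.9 in WT Dex cells (-1.27 ± 0.08, edgeR adjusted p = 4.34e-09). Dhcr7 was at 17.1, 10.2, 10.7 and 14.6 in KO Dex cells, against 31.9, 38.5, 36.6 and 41.7 in WT Dex cells (-1.49 ± 0.17, edgeR adjusted p = 2.44e-06). Neither gene overlapped between genotypes. Abcg1, which rose in both genotypes, stood at 0.28 ± 0.15 between them (edgeR adjusted p = 0.132). These contrasts and those of Dex share the KO Dex libraries, so they do not stand as separate evidence. The Lss and Stard4 calls were each lost when some single library was left out.

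**Figure D3:**
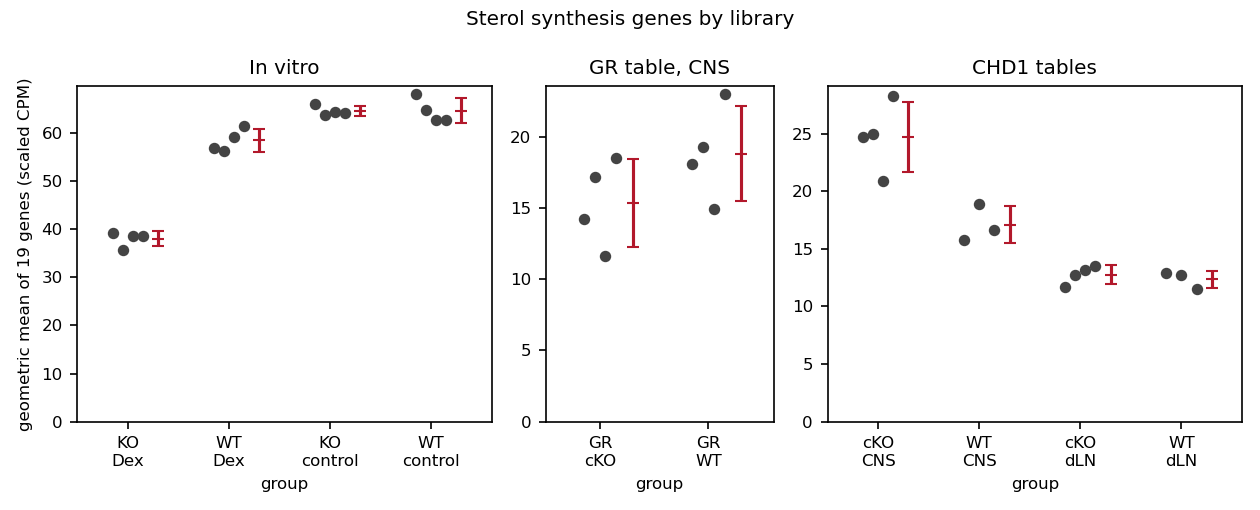
Geometric mean of the scaled CPM of the 19 sterol synthesis genes in each library (points), with the group mean and SD, in culture, GR and CHD1 libraries. KO Dex cells average 38 ± 1.54, and in the CNS CHD1 cKO cells average 24.7 ± 3.03 and CHD1 WT cells 17.1 ± 1.61 (SD). Panels were scaled apart, so levels are compared within a panel.

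In EAE mice, cells sorted from the CNS held more sterol synthesis RNA than cells of the dLN. In CHD1 cKO cells 15 of 19 sterol synthesis genes were higher in the CNS and none lower, against 24.6% and 22.7% of all 11589 genes tested, and their median log2 fold change was 0.77, against -0.02 over all genes. Tissue is confounded with the table that held it, and per the labels CNS tissue was digested with collagenase and put on a density gradient while dLN were dispersed mechanically, so tissue and handling cannot be told apart. Fdps was at 119, 134, 81.6 and 152 scaled CPM in cKO CNS cells, against 27.8, 26.8, 39.6 and 30.1 in cKO dLN cells, and the groups stood far apart (1.97 ± 0.18, edgeR adjusted p = 1.23e-06). Pmvk was at 36.7, 32.2, 27.3 and 37.6 in the CNS, against 9.34, 11.9, 10.1 and 14 in dLN (1.56 ± 0.16, edgeR adjusted p = 3.21e-06). Sqle was at 25.3, 25.2, 17.2 and 29.1 in cKO CNS cells, against 7.52, 6.86, 7.86 and 8.87 in cKO dLN cells (1.63 ± 0.2, edgeR adjusted p = 1.42e-05).

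Idi1 (1.51 ± 0.28), Cyp51 (1.44 ± 0.26), Nsdhl (1.34 ± 0.22), Fdft1 (1.22 ± 0.21), Hmgcs1 (1.05 ± 0.26) and Mvk (1.04 ± 0.24) followed on the log2 scale in cKO cells. Smaller rises were called for Mvd (0.77 ± 0.2), Msmo1 (0.7 ± 0.18), Erg28 (0.7 ± 0.15), Lss (0.69 ± 0.25), Ebp (0.59 ± 0.16) and Sc5d (0.56 ± 0.2). Dhcr7, Hsd17b7, Tm7sf2 and Acat2 were not called. Of the regulators, Insig1 was at 19.6, 25.2, 12.8 and 20.4 scaled CPM in cKO CNS cells, against 8.56, 5.37, 7.3 and 10 in cKO dLN cells (1.31 ± 0.22, edgeR adjusted p = 0.000232). Stard4 was at 17.6, 14.3, 16.9 and 23.9 in the CNS, against 4.41, 8.95, 7.58 and 4.01 in dLN (1.55 ± 0.32, edgeR adjusted p = 0.00136). Srebf2 was higher by 0.54 ± 0.15. None of the 5 fatty acid genes tested was called, with fold changes from -0.57 to 0.27. Abcg1 was lower in the CNS, at 13.4, 12.8, 21.6 and 12.1 in cKO CNS cells, against 23.9, 29.2, 28.3 and 22 in cKO dLN cells (-0.79 ± 0.19, edgeR adjusted p = 0.00395).

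In WT cells 4 sterol synthesis genes were called higher in the CNS and none lower, and 18 of the 19 fold changes were positive. Over all genes 11.8% were higher and 4.93% lower in the CNS, and the median of the 19 genes was 0.37, against -0.01. Fdps was at 51.3, 58.8 and 53.4 scaled CPM in WT CNS cells, against 34.1, 33.9 and 27.6 in WT dLN cells (0.77 ± 0.21, edgeR adjusted p = 0.0197). Cyp51 was at 16.5, 23.2 and 15.7 in the CNS, against 7.16, 12.9 and 6.04 in dLN (1.1 ± 0.31, edgeR adjusted p = 0.0245). Pmvk was at 18.8, 20.9 and 19.1 in WT CNS cells, against 13.8, 10.3 and 11.5 in WT dLN cells (0.72 ± 0.19, edgeR adjusted p = 0.0155). In each of these genes every CNS library was above every dLN library. Nsdhl (0.76 ± 0.25), Insig1 (1.09 ± 0.26) and Srebf2 (0.65 ± 0.17) were also called. All 6 members called in WT cells were among the 18 called higher in cKO cells. Leaving out 1 library at a time left 1 to 6 of the 6 calls, with 1 left without WT CNS 2 and 2 without WT dLN 3.

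**Figure D4:**
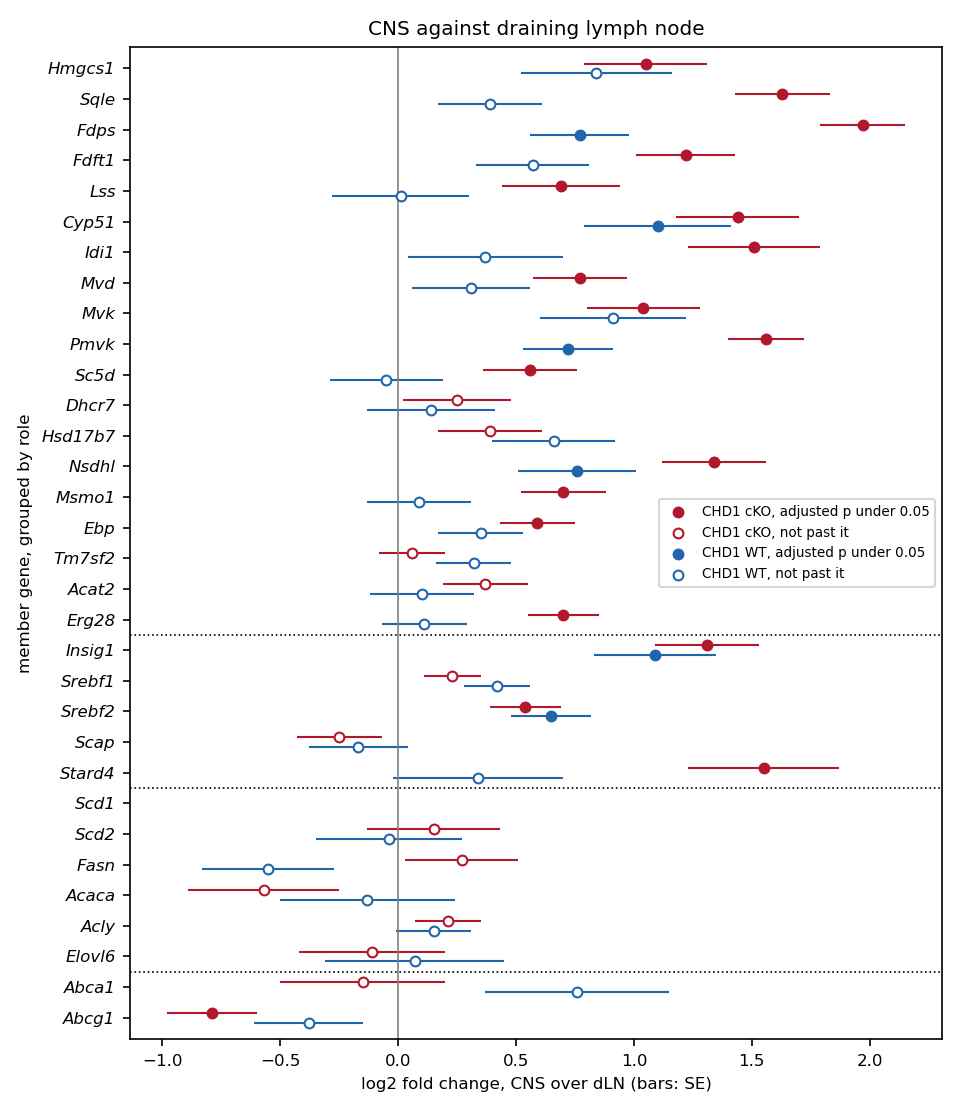
Log2 fold change, CNS over dLN, of each member with its SE (bars) in CHD1 cKO cells (red) and CHD1 WT cells (blue), where filled points have an edgeR adjusted p under 0.05. Fdps stands at 1.97 in cKO and 0.77 in WT cells, and Abcg1 is below 0 in both.

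Macrophage RNA was far higher in the CNS libraries. All 15 macrophage and microglia genes were called higher in the CNS in both genotypes, with sums of 4460 to 9140 scaled CPM in cKO CNS against 155 to 237 in cKO dLN, and of 4800 to 6150 in WT CNS against 137 to 246 in WT dLN. Repeat and ribosomal RNA went the other way, at 13.1% to 20.9% of counts in cKO CNS against 42.3% to 59.7% in cKO dLN, and at 18.3% to 32.6% in WT CNS against 41.8% to 54.4% in WT dLN. With repeat and ribosomal RNA features taken out of the counts, the same 19 members were called in cKO cells. CD8 T cell genes summed to 18.4 to 29 scaled CPM in cKO CNS libraries, against 130 to 603 in cKO dLN libraries. In WT cells they summed to 22.8 to 26.9 in the CNS and 14.5 to 23.4 in dLN. Leaving out the 2 cKO dLN libraries richest in CD8 RNA, chosen after seeing the data, raised the sterol median to 0.99 and ended the calls of Ebp, Sc5d, Lss and Abcg1. The part of macrophage RNA in the higher sterol genes was not tested, nor was that of T cell RNA, which summed to 13700 to 33500 in cKO CNS and 7530 to 18000 in cKO dLN. Fdft1 shares exon bases with Ctsb, a lysosomal protease gene of macrophages, so its value is uncertain.

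Related genes in cKO cells are set here against the 47.3% of all genes that were called. Of 9 other genes of sterol synthesis and linked steps, 3 were higher and 2 lower in the CNS. Of 14 other fatty acid genes, 8 were higher and 3 lower. The desaturase Fads1 changed by 1.47 ± 0.19, whereas Acss2, which makes acetyl-CoA from acetate, changed by -1.84 ± 0.18. Fads2 averaged 3.98 scaled CPM in cKO CNS cells and 0.216 in cKO dLN cells, near the level of 0. Soat1 rose by 0.99 ± 0.13 on the log2 scale. The LXR target Arl4c fell by 1.93 ± 0.17, in the same direction as Abcg1, but the listed LXR targets did not move together. Apoe went the other way, with an average of 1070 scaled CPM in cKO CNS cells and 13.8 in cKO dLN cells. Lpcat3 averaged 38.6 in cKO CNS cells and 39.4 in cKO dLN cells. In WT cells Fads1 changed by 1.1 ± 0.22, Acss2 by -0.92 ± 0.21 and Arl4c by -0.95 ± 0.21. Apoe averaged 945 scaled CPM in WT CNS cells and 15 in WT dLN cells.

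Between genotypes in the CNS, no member passed the test, though most sterol synthesis values lay higher in libraries labelled CHD1 cKO. Of 32 members 0 were called by edgeR, against 0.00896% of 11157 genes. An unadjusted p under 0.05 was found for 14 members and for 11.9% of all genes. DESeq2 called 4 of the 32 members and also more genes in all than edgeR, and both of its counts are given in the last section. Of the 19 sterol synthesis genes 17 had a positive log2 fold change, with a median of 0.61, against -0.01 over all genes. The groups did not overlap for 8 members in the higher direction, against 6.10% of all genes, and for 2 in the lower, against 6.66%. Fdps was at 119, 134, 81.6 and 152 scaled CPM in cKO CNS cells, against 51.3, 58.8 and 53.4 in WT CNS cells, a log2 fold change of 1.15 ± 0.2 (edgeR adjusted p = 0.15). Mvd was at 15.1, 19.4, 13.8 and 18.7 in cKO cells, against 6.85, 10.7 and 10.6 in WT cells (0.84 ± 0.22, edgeR adjusted p = 0.251). Msmo1 was at 25.8, 28.7, 23.2 and 30.1 in cKO cells, against 11.8, 17.5 and 17.1 in WT cells (0.8 ± 0.19, edgeR adjusted p = 0.236).

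Pmvk (0.76 ± 0.16), Mvk (0.68 ± 0.19), Acat2 (0.63 ± 0.19), Sc5d (0.61 ± 0.17) and Lss (0.59 ± 0.2) also stood apart in the CNS, at edgeR adjusted p from 0.204 to 0.303. Hmgcs1 was at 41.9, 39.6, 18.8 and 46.6 in cKO cells, against 14.7, 22.7 and 19.5 in WT cells, where cKO library 3 fell among the WT libraries (0.95 ± 0.3, edgeR adjusted p = 0.291). That library was also the lowest of its group for Fdps, Sqle, Idi1 and Insig1, and without it Fdps had a fold change of 1.3 (edgeR adjusted p = 0.0627). In the opposite direction Abca1 was at 3.86, 2.5, 2.16 and 1.69 in cKO cells, against 4.52, 5.53 and 5.29 in WT cells (-1.01 ± 0.32, edgeR adjusted p = 0.291). Scd2 was at 14, 15.3, 5.91 and 14.7 in cKO cells, against 15.6, 20.1 and 15.9 in WT cells (-0.47 ± 0.29), and it was not called. Summed dendritic cell and MHC class II RNA was 3920 to 7550 in cKO CNS cells and 2440 to 3090 in WT CNS cells, and T cell RNA 13700 to 33500 and 26200 to 33500. Their part in these values was not tested.

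**Figure D5:**
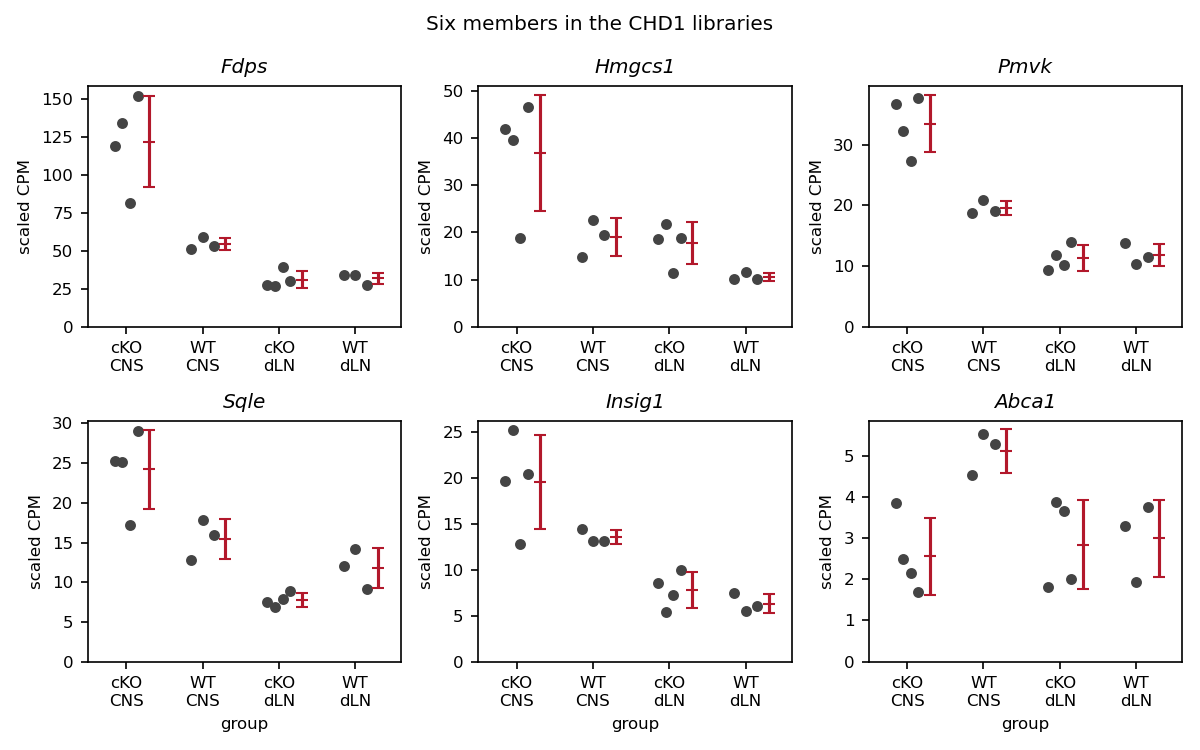
Scaled CPM of Fdps, Hmgcs1, Pmvk, Sqle, Insig1 and Abca1 in each CHD1 library (points), with the group mean and SD, for cKO and WT cells of the CNS and dLN. The 4 cKO CNS libraries sit above the 3 WT CNS libraries for Fdps and Pmvk, and below them for Abca1.

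In dLN no member passed the test between genotypes either. Of 31 members tested 0 were called by edgeR, against 0.0714% of 9803 genes, and 3 had an unadjusted p under 0.05, against 20.1% of all genes. The median of the 19 sterol synthesis genes was -0.01, against 0.02 over all genes. Sqle was at 7.52, 6.86, 7.86 and 8.87 scaled CPM in cKO dLN cells, against 12.1, 14.2 and 9.21 in WT dLN cells, the 1 member that lay lower without overlap, against 8.16% of all genes (-0.62 ± 0.22, edgeR adjusted p = 0.161). Hsd17b7 was the 1 member higher without overlap, against 8.90% of all genes (0.21 ± 0.28, edgeR adjusted p = 0.735). Hmgcs1 was at 18.7, 21.8, 11.5 and 18.9 in cKO cells, against 10.2, 11.6 and 10.1 in WT cells, with overlap (0.72 ± 0.23, edgeR adjusted p = 0.137). Both CD8 genes were called higher in the cKO dLN libraries, at a sum of 130 to 603 in cKO and 14.5 to 23.4 in WT cells. The sum of the 8 T cell genes lay lower, at 7530 to 18000 in cKO and 22000 to 24900 in WT cells. Their part in these values was not tested.

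Whether the genotype difference depended on tissue was tested in 1 fit of both tables. The edgeR fit called 0 of 31 members, against 0.112% of all genes, while 7 members and 2190 genes (18.9%) had an unadjusted p under 0.05. DESeq2 called 3 of the 31 members and also more genes in all than edgeR, and both of its counts are given in the last section. The median over the 19 sterol synthesis genes was 0.57, against -0.04 over all genes. Sqle stood at 1.24 ± 0.3 (edgeR adjusted p = 0.0748) and Fdps at 1.19 ± 0.28 (edgeR adjusted p = 0.0708). Leaving out 1 library at a time gave 0 to 4 called members, with 4 without cKO dLN 4 and 1 without cKO CNS 3.

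For GR, no member was called between genotypes in the CNS, and Scd1 was not tested there. The edgeR fit called 0 of 11148 genes, which is 0%, with 1226 genes (11.0%) and 6 members at an unadjusted p under 0.05, and DESeq2 called 122 genes. The median log2 fold change of the 19 sterol synthesis genes was -0.33, against 0 over all genes, and 15 were negative. Their geometric mean was 15.4 ± 3.09 scaled CPM in GR cKO and 18.8 ± 3.35 in GR WT cells (SD, n = 4 each), a difference within the spread. Cyp51 was at 9.24, 15.2, 11.5 and 16 in cKO cells, against 22.7, 25.9, 14.1 and 26.1 in WT cells (-0.78 ± 0.23, edgeR adjusted p = 0.296). Stard4 was at 6.16, 11.5, 5.25 and 9.37 in cKO cells, against 13.3, 12.3, 11.7 and 17.2 in WT cells, and Srebf2 at 27.9, 37.6, 29.6 and 38.5 against 39.7, 41, 45.7 and 45.9. These 2 members lay lower without overlap, against 3.80% of all genes, at -0.75 ± 0.25 (edgeR adjusted p = 0.328) and -0.37 ± 0.13 (edgeR adjusted p = 0.34). Abca1 was at 9.24, 5.44, 12.3 and 3.24 in GR cKO cells, against 1.56, 5.46, 4.11 and 1.61 in GR WT cells (1.26 ± 0.49, edgeR adjusted p = 0.388). Abcg1 was at 28.9, 19.9, 32.3 and 17, against 15, 18.8, 19.2 and 11.3 (0.61 ± 0.24, edgeR adjusted p = 0.375). Summed macrophage RNA was 7920 to 17000 in cKO and 3620 to 11200 in WT libraries, and its part was not tested. Macrophages are known to express both exporters.

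Set side by side, 16 sterol synthesis genes fell with Dex in IL-23R KO cells and 15 were higher in the CNS than in dLN in CHD1 cKO cells. These contrasts share no library. The lists had 12 genes in common, which is 75% of the first and 80% of the second, and the fewest that lists of these sizes drawn from 19 genes can share. Dhcr7, Hsd17b7, Tm7sf2 and Acat2 fell with Dex and were not called between tissues. Erg28, which had the lowest fold change with Dex, had one of the smaller rises between tissues, while Fdps stood among the largest changes in both. Elovl6 rose with Dex in both genotypes (0.95 ± 0.09 in KO and 0.93 ± 0.09 in WT cells) and was not called in any CHD1 or GR comparison. Abcg1 moved opposite to most sterol synthesis genes in KO cells with Dex and in cKO cells of the CNS.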

How the data were processed

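Per the labels' protocols, 2000 cells went into each SMART-Seq2 and Nextera XT library, which was amplified for 12 cycles. The authors deposited expected counts for each gene symbol, from RSEM 1.3.3 and mm10 according to the submitters' processing notes. As every value was whole, the estimates were taken to be rounded. Rounding, aligner and annotation release are not given in the sources used here. Groups came from the sample labels. No molecular identifiers are named, so precision covers counting error and amplification cannot be told apart from it. The 54 pairs of libraries within a group all differed by more than counting noise.

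The test was that of edgeR 4.0.16 in R 4.3.3 (filterByExpr with minimum count 10 and minimum total 15, TMM scaling, quasi-likelihood F test), with p adjusted by Benjamini-Hochberg over all genes tested and called under 0.05. All 16 culture libraries entered 1 fit and all 14 CHD1 libraries entered another for the tissue contrasts, while the GR, CHD1 CNS and CHD1 dLN genotype contrasts used their own table. Genes matched GENCODE M21 for 30464 of 31053 symbols, which gave positions and lengths, and promoters came from RefSeq on GRCm38.p6. The scripts were tested on simulated data. Alternatives were DESeq2 1.42.0, its size factors, 2 other filters, removal of repeats, a replicate block, smaller or joint fits and each library left out.

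All 32 members could be named in each comparison. From each list of related genes up to 4 could be named, those called with the largest absolute fold change first, and the text names a selection of them. The members and lists were chosen with earlier results of these data known. In the lists of related genes, 1 symbol had no row in the tables. Same-numbered libraries were not taken as pairs, because correlations of their deviations ran from -0.06 to 0.12 and no label says that a number marks a shared mouse or culture.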

Additional observations from a re-analysis of the deposited data

Results flagged for a closer look

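In 14 of 256 combinations of a member and a group of 4 libraries, 1 library stood far from the other 3, which chance gives in about 1 in 20 such groups. In IL-23R KO Dex cells Abcg1 was at 18.3 scaled CPM in library 8 and at 14.7 to 15.3 in the others. In WT Dex cells Ebp was at 38.8 in library 1, against 41.5 to 42 in the others. Among KO controls Cyp51 stood at 79.6 in library 5 and at 76.8 to 77.2 elsewhere, and Elovl6 at 29.4 in library 7 and 25.4 to 25.7 elsewhere. Among WT controls library 2 had Fdft1 at 83.6, against 86.6 to 87 in the others, and Scap at 12.3, against 9.62 to 9.67, while library 1 had Scd2 at 115, against 96.1 to 97.7. In GR WT cells Mvd was at 6.08 in library 3, against 10.8 to 11.4 in the others, and Msmo1 at 29.5 in library 4, against 18.6 to 20. In CHD1 cKO cells of the CNS, library 3 had Scd2 at 5.91, against 14 to 15.3 in the others, and Abcg1 at 21.6, against 12.1 to 13.4, and library 4 had Scap at 19.2, against 15.7 to 16.2. In CHD1 cKO cells of the dLN, library 3 had Lss at 19.4, against 13.7 to 14 in the others, and Acly at 64.8, against 68.1 to 68.6.

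The response to Dex differed between IL-23R KO and WT cells for 21 members by the interaction test of edgeR, where 32.2% of all 10813 genes were called. The difference of log2 fold changes, KO minus WT, was -1.66 for Dhcr7, -1.26 for Mvk, -1.22 for Erg28, -1.11 for Mvd and -1.01 for Fdps. It was -0.91 for Acat2, -0.86 for Nsdhl, -0.71 for Tm7sf2, -0.66 for Fdft1, -0.64 for Hmgcs1, -0.57 for Ebp, -0.56 for Cyp51 and -0.42 for Pmvk. Among regulators it was 0.58 for Insig1, 0.29 for Srebf2 and -0.72 for Scap. Among fatty acid genes it was -1.02 for Scd1, -0.77 for Fasn, 0.48 for Acly and 0.47 for Scd2. For the exporter Abcg1 it was 0.83.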

How the results depend on the processing

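Of 5234 recomputed fold changes of members, 138 changed sign, none of them called at either setting. With no filter on low counts, 3 rather than 6 members were called with Dex in WT cells, 1 rather than 0 for CHD1 in the CNS and 1 rather than 0 for genotype by tissue. Over all genes it called 4 rather than 0 for GR, 72 rather than 1 for CHD1 in the CNS, 511 rather than 7 in dLN and 172 rather than 13 for genotype by tissue. The same setting moved the median of all genes to 0.12 for Dex in KO cells, 0.15 for genotype by Dex and -0.13 for genotype by tissue. Testing only genes with a mean of at least 10 CPM gave sterol medians of -0.69 for Dex in KO cells, -0.58 for genotype by Dex and -0.59 for KO over WT with Dex. It also gave 1225 genes called between tissues in WT cells, 3418 in cKO cells and 95 for genotype by tissue. DESeq2 called 122 genes for KO over WT controls, 122 for GR and 385 for CHD1 in dLN. For CHD1 in the CNS it called 178 of 11157 genes, with 4 members among them. For genotype by tissue it called 586 of 11589 genes, with 3 members among them. DESeq2 size factors gave 7 genes for genotype by tissue. Fitting only the 8 libraries compared gave 42 genes for KO over WT controls. A joint fit of both tissues gave 3 genes for CHD1 in the CNS and 192 in dLN. Without both CD8-rich dLN libraries, a choice made after seeing the data, the tissue contrast in cKO cells had 3648 genes called and a sterol median of 0.99, and 1 gene was called for genotype by tissue and 1 for CHD1 in dLN. The causes of these moves were not tested.

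With the replicate number as a block, 4 members were called for Dex in WT cells, 27 in KO cells, 20 for genotype by Dex, 5 between tissues in WT cells and 19 in cKO cells. The block gave 3 genes for CHD1 in the CNS, 613 in dLN and 52 for genotype by tissue, with 0 members in each. No shared numbers exist for GR or for IL-23R KO over WT, so no block could be fitted there. Leaving out 1 library at a time gave these ranges. Members called were 2 to 4 for Dex in WT cells, 26 to 27 in KO cells, 17 to 21 for genotype by Dex, 19 to 23 for KO over WT with Dex, 1 to 6 between tissues in WT cells, 17 to 21 in cKO cells and 0 to 4 for genotype by tissue. Genes called were 531 to 829 for Dex in WT cells, 26 to 77 for KO over WT controls, 0 to 2 for GR, 0 to 2 for CHD1 in the CNS, 0 to 990 in dLN and 0 to 648 for genotype by tissue. Sterol medians were -0.17 to -0.11 for Dex in WT cells, -0.81 to -0.75 in KO cells, -0.69 to -0.59 for genotype by Dex, -0.04 to 0.02 for KO over WT controls, -0.7 to -0.58 with Dex, -0.44 to -0.19 for GR, 0.48 to 0.68 for CHD1 in the CNS, -0.07 to 0.08 in dLN, 0.32 to 0.5 between tissues in WT cells, 0.7 to 0.85 in cKO cells and 0.36 to 0.6 for genotype by tissue. Scd1 was not tested in the dLN, where totals began at 3148634 counts, nor in the deeper GR libraries.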
